A study of Mus musculus with 24 samples.

Results

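Whole lungs of mice in which 3 let-7 genes (a, f and d) were deleted were compared with control lungs 6 days after tamoxifen. The comparison held 6 of the 24 libraries of the series, 3 knockout and 3 control lungs, each from 1 mouse, and every gene listed was in it: 24970 gene symbols, of which 14154 were tested. Knockout mice were let7afd-/-;Sftpc-CreER/+; R26-tdT/+ and control mice were Sftpc-CreER/+; R26-tdT/+, so that both genotypes carried the Cre driver and the tdTomato reporter and both received tamoxifen. The Sftpc promoter is active in alveolar type 2 (AT2) cells, the surfactant-making cells of the air sacs, while whole lung holds many other cell types. No source used here gives the strain or the age of the mice. Lungs at 6 months of booster tamoxifen (4 knockout, 4 control) and sorted AT2 cells at 6 days (3 knockout, 3 control, pools of 3 mice) entered only where the effects were set against each other.

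The let-7 family is a set of microRNAs that share a seed, the bases that pair with target transcripts, and that lower the stability and translation of those transcripts. The family is known for holding back growth and developmental genes in differentiated tissue. The 3 deleted genes lie within one cluster on the minus strand at chr13:48536012-48538272 of GRCm38.p6 (RefSeq), a span of 2261 bases. Their mature sequences are shown, 5′ to 3′ and as RNA, because the deleted genes encode them; capitals mark the seed, bases 2 to 8, which is the same in all 3. Mature let-7a and let-7f are also made from genes outside this cluster.
let-7a-5p (Mirlet7a-1): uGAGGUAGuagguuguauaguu
let-7f-5p (Mirlet7f-1): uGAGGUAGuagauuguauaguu
let-7d-5p (Mirlet7d): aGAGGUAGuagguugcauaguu

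All 3 precursor transcripts had 0 TPM in each lung library at 6 days. Mature microRNAs carry no poly(A) tail and escape this kind of library, so the deletion cannot be checked here. The nearest tested gene of the cluster, Zfp169 (chr13:48480763-48513493), which encodes a zinc finger protein, had 6.05, 4.88 and 2.63 TPM in knockout lungs and 2.09, 2.51 and 1.69 TPM in control lungs. Every knockout value was above every control value, and the difference did not pass the test (log2 fold change 0.79 ± 0.27 (SE), adjusted p = 0.117). Ptpdc1, on the other side of the cluster, had 4.42, 2.93 and 1.52 TPM in knockout lungs and 4.85, 4.28 and 4.11 TPM in control lungs, and it did not pass either (adjusted p = 0.281).

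Values were TPM (transcripts per 1e+06 transcripts), which scale each library to the same sum and keep no read numbers, so depth is unknown. Libraries held 13620 to 13980 genes at 1 TPM or more in knockout lungs and 14050 to 14156 in control lungs. Knockout 3 stood apart on the first principal component, which held 59.8% of the variance, and had the fewest genes at 1 TPM. Alpha and beta haemoglobin genes made up 2.06%, 6.54% and 12.6% of TPM in knockout lungs and 4.72%, 1.40% and 4.08% in control lungs. Control 2 lay nearer to the knockout lungs than the other controls did: its correlation with knockout 1 and 2 over log2 values was 0.970 and 0.972, against 0.951 and 0.954 for control 1 and 0.950 and 0.950 for control 3. All 6 libraries held the Y-linked gene Ddx3y, at 28.0 to 38.7 TPM, and at most 0.026 TPM of Xist, which marks female cells.

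Changes are given as log2 ratios of TPM + 1 between knockout and control, which understate the change of low genes, and a gene passed at an adjusted p under 0.05. In knockout lungs 447 genes rose, 3.16% of the genes tested, and 536 fell, 3.79%. The median change over all tested genes was -0.14, and 5070 of the 14154 had a positive change. With limma, 3563 of the 14154 had an unadjusted p under 0.05, in either direction. In groups of 3, 1 library often decided a call: leaving out knockout 1, 2 or 3 gave 466, 180 and 1032 genes that rose and 976, 172 and 1017 that fell. Leaving out control 1, 2 or 3 gave 41, 347 and 68 that rose and 51, 251 and 80 that fell. Median-ratio scaling, which brought the median change to 0.00, called 946 genes as higher and 852 as lower. Library preparation was not strand-specific, so overlapping antisense genes cannot be told apart. In bulk lung, fewer cells of a type and less RNA per cell cannot be told apart. Where genotypes did not overlap, an exact permutation test of 3 against 3, two-sided, gives p = 0.1. The share of all genes without overlap is not given here, so a lack of overlap adds little to a gene that did not pass.

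Of 23 genes of lipid-associated macrophages tested, 17 rose and none fell, with a median change of 1.10. Alveolar macrophages clear surfactant and inhaled particles, and macrophages that take up lipid switch on a set of receptors and lysosomal genes around Trem2. Trem2, the lipid receptor that names this state, had 85.0, 90.8 and 119 TPM in knockout lungs and 7.92, 15.7 and 6.78 TPM in control lungs (log2 fold change 3.23 ± 0.29 (SE), adjusted p = 0.00323). Gpnmb, a membrane glycoprotein of lipid-laden macrophages, had 96.5, 111 and 129 TPM in knockout lungs and 12.6, 36.3 and 12.7 TPM in control lungs (log2 fold change 2.56 ± 0.37 (SE), adjusted p = 0.0102). Neither gene overlapped between genotypes, which the rule for the largest rises required of Trem2. In both the highest control value was that of control 2. Cd63, a lysosomal membrane protein, averaged 952 ± 135 TPM in knockout lungs and 361 ± 60.9 TPM in control lungs (SD, n = 3 each, log2 fold change 1.40). Spp1, the secreted ligand osteopontin, averaged 3561 ± 2259 TPM in knockout lungs and 164 ± 27.9 TPM in control lungs, with knockout 3 highest at 6117 TPM. Mmp12, the elastase of macrophages, had 112, 113 and 106 TPM in knockout lungs and 20.5, 89.1 and 14.8 TPM in control lungs. It did not pass (adjusted p = 0.0884), and control 2 lay close to the knockout values.

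**Figure D1:**
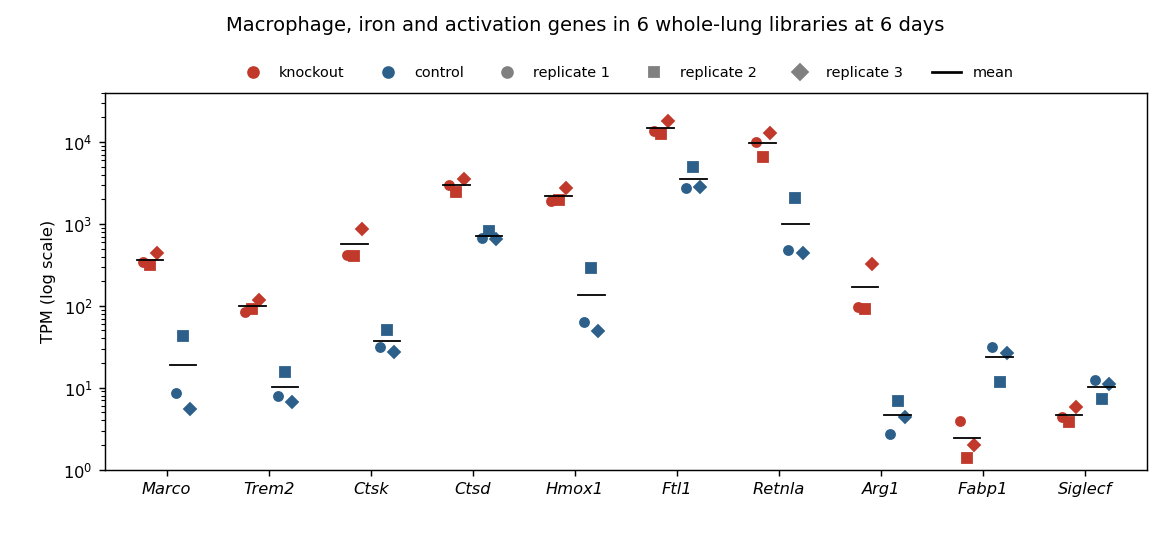
TPM on a log axis of 10 macrophage, iron and activation genes in each of the 3 knockout (left, red) and 3 control (right, blue) whole lungs at 6 days; bars are means and marker shapes give the replicate number. Marco spans 314 to 444 TPM in knockout lungs and 5.51 to 43.2 TPM in control lungs, and control 2 is the highest control for Marco, Trem2, Ctsk, Ctsd, Hmox1, Ftl1, Retnla and Arg1.

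Genes of resident alveolar macrophages did not all move one way. Of 20 tested, 9 rose and 4 fell, with a median of 0.68. Ctsk, a lysosomal protease, had 418, 403 and 879.5 TPM in knockout lungs and 31.4, 51.2 and 27.5 TPM in control lungs (log2 fold change 3.87 ± 0.34 (SE), adjusted p = 0.00289). Marco, a scavenger receptor for particles, averaged 366 ± 69.3 TPM in knockout lungs and 19.1 ± 20.9 TPM in control lungs (SD, n = 3 each). Bhlhe41, a transcription factor of alveolar macrophages, averaged 8.75 ± 0.708 TPM in knockout lungs and 2.45 ± 0.689 TPM in control lungs (log2 fold change 1.51). The genes that fell were Siglecf, Ear1, Fabp1 and Cidec. Fabp1, a fatty acid binding protein, had 3.92, 1.39 and 2.02 TPM in knockout lungs and 31.8, 11.9 and 26.6 TPM in control lungs (log2 fold change -2.79 ± 0.39 (SE), adjusted p = 0.00895). Siglecf, a surface lectin of mature resident alveolar macrophages, had 4.38, 3.81 and 5.75 TPM in knockout lungs and 12.3, 7.25 and 11.1 TPM in control lungs (log2 fold change -0.98 ± 0.24 (SE), adjusted p = 0.0486). Its genotypes did not overlap, but the call was lost with a pseudocount of 0.1, with either other filter, with haemoglobin genes left out, and under median-ratio scaling or quantile normalization, which bring the libraries to one scale in other ways. Summed over the 20 alveolar macrophage genes, TPM was 8855, 5112 and 15397 in knockout lungs and 2539.8, 2404 and 2430.4 in control lungs. The sums did not overlap (exact permutation test, two-sided, p = 0.1, the smallest that 3 against 3 can give). Chil3 alone, at 5920.3, 2589 and 11373 TPM in knockout lungs and 848, 706 and 852 TPM in control lungs, made up much of that sum. Without Chil3 the sums were 2935, 2523 and 4024 TPM in knockout lungs and 1692, 1698 and 1578 TPM in control lungs, still with no overlap.

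Among 22 genes of interstitial macrophages and monocytes, 4 rose and 1 fell. Ms4a7, a tetraspanning protein of monocyte-derived macrophages, averaged 35.7 ± 6.68 TPM in knockout lungs and 12.1 ± 2.10 TPM in control lungs (SD, n = 3 each, log2 fold change 1.49). Pf4 (log2 fold change 0.99), the endotoxin co-receptor Cd14 (0.87) and the complement subunit C1qb (1.14) also rose. C1qa, a second subunit of C1q, averaged 292 ± 89.6 TPM in knockout lungs and 152 ± 42.4 TPM in control lungs and did not pass (adjusted p = 0.0671). Lyve1, a hyaluronan receptor of lymphatic vessels and of perivascular macrophages, fell, with 159, 117 and 69.9 TPM in knockout lungs and 259.8, 242 and 279 TPM in control lungs. The summed TPM of this list overlapped between genotypes, at 3236, 2372 and 2002 in knockout lungs and 1999, 2249 and 1962 in control lungs. Of the 14 macrophage genes that passed and are given here with values, 13, 9 and 14 still passed without knockout 1, 2 and 3, and 5, 13 and 8 without control 1, 2 and 3. Lipid-associated macrophage genes that rose numbered 15, 13 and 18 without knockout 1, 2 and 3, and 5, 14 and 9 without control 1, 2 and 3. Alveolar macrophage genes that rose numbered 9, 9 and 10 without knockout 1, 2 and 3, and 2, 6 and 3 without control 1, 2 and 3. Those that fell numbered 3, 1 and 4 without knockout 1, 2 and 3, and 0, 4 and 1 without control 1, 2 and 3. Interstitial macrophage and monocyte genes that rose numbered 4, 1 and 8 without knockout 1, 2 and 3, and 0, 4 and 0 without control 1, 2 and 3, with 8 under median-ratio scaling and 9 under quantile normalization.

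Lysosomes degrade engulfed lipid and protein with acid hydrolases, and a proton pump keeps them acid. Of 43 genes for lysosomal hydrolases and membrane proteins, 18 rose and none fell (median 0.50), and of 17 proton pump subunits 6 rose, with all 17 at a positive change. Ctsd, the main aspartyl protease of lysosomes, had 2953, 2460.1 and 3535 TPM in knockout lungs and 677, 821 and 659 TPM in control lungs (log2 fold change 2.04 ± 0.16 (SE), adjusted p = 0.00289). Ctss, a cysteine protease of antigen-presenting cells, averaged 1106 ± 161 TPM in knockout lungs and 420.1 ± 68.8 TPM in control lungs (SD, n = 3 each). Lgmn, an asparaginyl protease, averaged 347 ± 21.9 TPM in knockout lungs and 146 ± 23.9 TPM in control lungs. Atp6v0d2, the pump subunit found in macrophages and osteoclasts, had 98.8, 62.0 and 161 TPM in knockout lungs and 32.2, 30.6 and 27.9 TPM in control lungs (log2 fold change 1.69 ± 0.31 (SE), adjusted p = 0.0187). The other pump subunits moved less: Tcirg1 by 1.02, Atp6v0e by 0.65 and Atp6v1b2 by 0.63 on the log2 scale. Of the 7 lysosomal genes named here that passed, 7, 4 and 7 still passed without knockout 1, 2 and 3, and 3, 6 and 3 without control 1, 2 and 3. Hydrolase and membrane protein genes that rose numbered 15, 10 and 25 without knockout 1, 2 and 3, and 5, 13 and 6 without control 1, 2 and 3. Pump subunits that rose numbered 5, 1 and 7 without knockout 1, 2 and 3, and 0, 3 and 0 without control 1, 2 and 3.

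Genes that free, store and export iron rose. Haem is broken down by Hmox1, the released iron is held in ferritin (Ftl1 and Fth1), and Slc40a1, ferroportin, exports it. Of 28 iron and haem genes 9 rose and 1 fell (median 0.31). Slc40a1 had 50.2, 51.5 and 65.6 TPM in knockout lungs and 10.1, 16.2 and 9.75 TPM in control lungs (log2 fold change 2.15 ± 0.22 (SE), adjusted p = 0.00445). Ftl1 had 13579, 12389 and 18079 TPM in knockout lungs and 2787, 5032 and 2792 TPM in control lungs (log2 fold change 2.09 ± 0.25 (SE), adjusted p = 0.00595). Fth1 averaged 12214 ± 2106 TPM in knockout lungs and 4073 ± 993 TPM in control lungs (SD, n = 3 each). Both ferritin genes have processed pseudogenes, with which reads may have been shared. The genotypes of Slc40a1, Ftl1 and Fth1 were apart, with control 2 the highest control. The gene that fell was Tfrc, the transferrin receptor through which cells take up iron. It had 16.6, 14.5 and 17.6 TPM in knockout lungs and 44.5, 30.1 and 52.4 TPM in control lungs (log2 fold change -1.30 ± 0.22 (SE), adjusted p = 0.0152). Red cells are rich in haem, and the summed TPM of red cell genes was 12919.8, 45546 and 85091 in knockout lungs and 32429, 8846 and 28584 in control lungs, and the genotypes overlapped. Of 9 red cell genes none passed with limma and 1 had an unadjusted p under 0.05. Hmox1 had 1900.5, 1972 and 2758 TPM in knockout lungs and 64.3, 293 and 49.2 TPM in control lungs. The part of red cells in these values was not tested.

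Of 26 genes for glutathione and thioredoxin, antioxidant genes under the factor NRF2, 8 rose and 2 fell. Slc7a11, the cystine importer, had 17.0, 14.9 and 21.1 TPM in knockout lungs and 1.55, 5.33 and 1.14 TPM in control lungs (log2 fold change 2.51 ± 0.39 (SE), adjusted p = 0.0117). Gclm, a subunit of the enzyme that starts glutathione synthesis, rose by 1.06, Prdx1, a peroxide-removing enzyme, by 1.49, and Pgd, of the pentose phosphate pathway, by 0.99 on the log2 scale. Bach1, a haem-sensitive repressor of Hmox1 and a reported let-7 target, averaged 24.9 ± 4.27 TPM in knockout lungs and 27.6 ± 1.23 TPM in control lungs. It did not pass (log2 fold change -0.16, adjusted p = 0.571). Of the 9 iron and antioxidant genes named here that passed, 9, 7 and 9 still passed without knockout 1, 2 and 3, and 4, 9 and 4 without control 1, 2 and 3. Iron genes that rose numbered 9, 6 and 10 without knockout 1, 2 and 3, and 4, 7 and 5 without control 1, 2 and 3. Antioxidant genes that rose numbered 9, 3 and 11 without knockout 1, 2 and 3, and 0, 9 and 0 without control 1, 2 and 3.

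Arg1, Retnla and Chil3, which type 2 cytokines are known to induce in mouse macrophages, rose; no list of such genes was tested. Arg1, the arginine-degrading arginase, had 98.1, 91.4 and 321 TPM in knockout lungs and 2.72, 6.84 and 4.43 TPM in control lungs (log2 fold change 4.73 ± 0.48 (SE), adjusted p = 0.0043). Retnla, a secreted resistin-like protein, had 10074, 6501 and 12850.5 TPM in knockout lungs and 487, 2102 and 440.0 TPM in control lungs (log2 fold change 3.62 ± 0.56 (SE), adjusted p = 0.0117). Chil3, a chitinase-like secreted protein, had 5920.3, 2589 and 11373 TPM in knockout lungs and 848, 706 and 852 TPM in control lungs (log2 fold change 2.80 ± 0.45 (SE), adjusted p = 0.0133). All 3 genes were apart between genotypes, which the rule for the largest rises required of Arg1 and Retnla. Knockout 3 was the highest in each. Chil4 had 39.4, 22.1 and 444 TPM in knockout lungs and 1.78, 11.7 and 1.66 TPM in control lungs and did not pass (adjusted p = 0.0599), so 1 of the 5 chitinase and chitinase-like genes tested rose. Chil3 and Chil4 are close copies, and reads shared between them may have been split.

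Lectin receptors of myeloid cells rose in 5 of 17 genes, with none falling. Clec4n, the dectin-2 receptor for fungal sugars, had 568, 564 and 1149.6 TPM in knockout lungs and 41.9, 114 and 36.9 TPM in control lungs (log2 fold change 3.65 ± 0.44 (SE), adjusted p = 0.00595). Clec5a, Clec4d and Clec4a2 rose by 1.98, 2.11 and 1.29 on the log2 scale. Other large rises were in genes of varied function. Gdf15, a stress-induced cytokine, had 18.4, 27.2 and 21.4 TPM in knockout lungs and 1.46, 3.32 and 1.12 TPM in control lungs. Fxyd4, a sodium pump regulator, had 17.8, 12.4 and 24.3 TPM in knockout lungs and 1.34, 1.27 and 0 TPM in control lungs. Ear6, a ribonuclease whose family holds close copies, had 18.2, 12.3 and 57.4 TPM in knockout lungs and 0.815, 3.03 and 0.604 TPM in control lungs. In all 3 the lowest knockout value was above the highest control value, which the rule that named them as largest rises required. Awat1, a wax synthase, had 3.89, 3.49 and 17.4 TPM in knockout lungs and 0, 0.118 and 0 TPM in control lungs. Of the 11 genes of both groups named here that passed, 11, 11 and 11 still passed without knockout 1, 2 and 3, and 4, 11 and 6 without control 1, 2 and 3. Lectin genes that rose numbered 6, 6 and 5 without knockout 1, 2 and 3, and 1, 6 and 3 without control 1, 2 and 3. Chitinase-like genes that rose numbered 2, 1 and 3 without knockout 1, 2 and 3, and 0, 1 and 0 without control 1, 2 and 3.

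**Figure D2:**
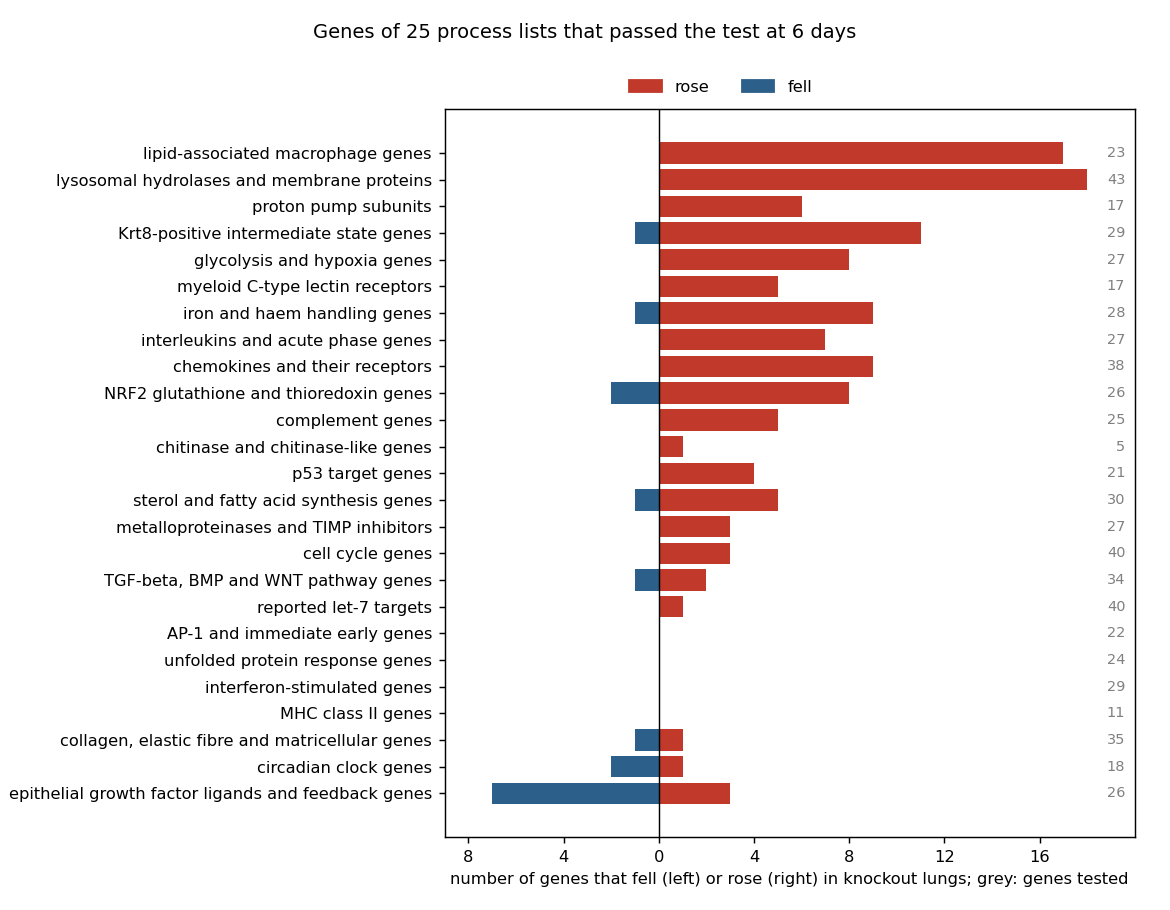
Number of genes that passed the test in each of 25 process lists, with genes that rose in knockout lungs to the right (red), genes that fell to the left (blue) and the number tested in grey. Lysosomal hydrolases and membrane proteins have 18 genes that rose of 43 tested and lipid-associated macrophage genes 17 of 23, while epithelial growth factor ligands and feedback genes have 7 that fell.

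AT2 cells are the cells the driver targets, and their genes did not move one way. Of 28 surfactant and AT2 identity genes 6 fell and 1 rose (median -0.26). Sftpc, the surfactant protein whose promoter drives the Cre, had 10154, 10404 and 13236 TPM in knockout lungs and 33719, 28797 and 31737 TPM in control lungs (log2 fold change -1.49 ± 0.14 (SE), adjusted p = 0.00383). Acoxl, an acyl-CoA oxidase-like gene of AT2 cells, averaged 12.8 ± 0.785 TPM in knockout lungs and 38.5 ± 5.32 TPM in control lungs (SD, n = 3 each). Lgi3, a secreted protein, averaged 48.3 ± 6.28 TPM in knockout lungs and 120.0 ± 18.5 TPM in control lungs. Bex2 averaged 12.6 ± 3.43 TPM in knockout lungs and 48.5 ± 9.01 TPM in control lungs. Etv5, the transcription factor that maintains AT2 identity, fell by 0.75 on the log2 scale (adjusted p = 0.0339). Sftpd, a surfactant collectin, had 1791, 1874 and 1999 TPM in knockout lungs and 1278, 1252 and 1220.3 TPM in control lungs (log2 fold change 0.59 ± 0.11 (SE), adjusted p = 0.0208). It rose by this test but did not pass under median-ratio scaling or quantile normalization, and Sftpc did not pass under median-ratio scaling. Other surfactant genes did not pass. Sftpb averaged 3435 ± 478 TPM in knockout lungs and 4151 ± 553 TPM in control lungs. Sftpa1 averaged 2293 ± 119 TPM in knockout lungs and 2540.4 ± 66.7 TPM in control lungs. Abca3, the lipid pump of lamellar bodies, averaged 97.6 ± 19.8 TPM in knockout lungs and 163 ± 21.4 TPM in control lungs (adjusted p = 0.0537). Sftpa1 had a change of -0.15, which turned to 0.01 under median-ratio scaling. Summed TPM of the list was 23969, 25992 and 28786 in knockout lungs and 50449, 43367 and 47995 in control lungs, with no overlap (exact permutation test, two-sided, p = 0.1). Sftpc held much of that sum, and without it the sums overlapped, at 13815, 15588 and 15550.4 TPM in knockout lungs and 16730.1, 14570.5 and 16258 TPM in control lungs.

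Of 25 genes of the flat alveolar type 1 (AT1) cells, 2 rose and none fell. Pdpn, a surface glycoprotein of AT1 cells that is also found on lymphatic and mesothelial cells, averaged 269 ± 30.9 TPM in knockout lungs and 115 ± 28.0 TPM in control lungs (SD, n = 3 each, log2 fold change 1.23). Krt7, a keratin of simple epithelia, averaged 621 ± 206 TPM in knockout lungs and 242 ± 85.2 TPM in control lungs (1.36). The defining AT1 genes Ager and Hopx did not pass. Ager averaged 2519.9 ± 745 TPM in knockout lungs and 2769 ± 228 TPM in control lungs. Hopx averaged 801 ± 92.6 TPM in knockout lungs and 848 ± 116 TPM in control lungs. Their log2 changes were -0.18 and -0.08, and both turned positive in some alternatives. Of 29 genes of the Krt8-positive intermediate state that AT2 cells pass through in repair, 11 rose and 1 fell. Sfn, a 14-3-3 protein, had 92.9, 88.1 and 57.6 TPM in knockout lungs and 20.4, 32.0 and 21.3 TPM in control lungs (log2 fold change 1.66 ± 0.24 (SE), adjusted p = 0.0104). Lgals3, galectin-3, which macrophages also make in quantity, averaged 711 ± 119.8 TPM in knockout lungs and 222 ± 76.5 TPM in control lungs. The growth factor ligands Areg (log2 fold change 1.42) and Hbegf (1.10) rose, and Fhl2, a LIM protein that heart muscle also makes, fell (-1.34). Krt8 averaged 269 ± 55.5 TPM in knockout lungs and 167 ± 21.5 TPM in control lungs (adjusted p = 0.0688). The tight junction gene Cldn4 averaged 11.7 ± 4.35 TPM in knockout lungs and 5.16 ± 0.651 TPM in control lungs (adjusted p = 0.0552). Neither passed. Counted with Gdf15, which is in the intermediate state list and is given above, 14 named genes of the AT2, AT1 and intermediate state lists passed. Which cells made these transcripts in whole lung was not tested. Of the 14 genes, 14, 8 and 14 still passed without knockout 1, 2 and 3, and 4, 12 and 5 without control 1, 2 and 3. AT2 genes that fell numbered 7, 4 and 9 without knockout 1, 2 and 3, and 3, 5 and 3 without control 1, 2 and 3, with 5 under median-ratio scaling and 10 under quantile normalization. Intermediate state genes that rose numbered 10, 3 and 19 without knockout 1, 2 and 3, and 1, 10 and 2 without control 1, 2 and 3, with 20 under median-ratio scaling and 18 under quantile normalization.

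Secretory (club) cells line the bronchioles, secrete the uteroglobin Scgb1a1 and detoxify inhaled compounds with cytochrome P450 enzymes, and ciliated cells move mucus. Genes of both kinds fell in knockout lungs. Of 24 secretory cell genes 16 fell and none rose (median -1.20), and of 26 ciliated cell genes 11 fell and none rose (median -0.76). Cyp2f2, the P450 that defines club cells, had 683, 963 and 589 TPM in knockout lungs and 3155, 2705 and 3244 TPM in control lungs (log2 fold change -2.05 ± 0.19 (SE), adjusted p = 0.00337). Cyp2a5, a P450 that shares much sequence with its neighbours in the Cyp2a family, had 3.30, 4.16 and 6.53 TPM in knockout lungs and 36.2, 29.8 and 60.4 TPM in control lungs (log2 fold change -2.91 ± 0.30 (SE), adjusted p = 0.00456). Bpifa1, a secreted antimicrobial protein of large airways, had 8.02, 30.5 and 158 TPM in knockout lungs and 647, 744 and 1152 TPM in control lungs (log2 fold change -4.53 ± 0.86 (SE), adjusted p = 0.022). Its knockout values spread widely, with knockout 1 lowest. Aldh1a1, a retinaldehyde dehydrogenase, averaged 559.9 ± 10.5 TPM in knockout lungs and 1245 ± 71.8 TPM in control lungs (SD, n = 3 each). Scgb1a1 averaged 75796 ± 7746 TPM in knockout lungs and 154929 ± 11408 TPM in control lungs; it held the highest TPM of any gene in each library, so quantile normalization set its change to 0, and it did not pass under median-ratio scaling or with no filter.

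Among ciliated cell genes Tppp3, a tubulin-binding protein, had 283, 253 and 205 TPM in knockout lungs and 573, 559 and 550.3 TPM in control lungs (log2 fold change -1.19 ± 0.15 (SE), adjusted p = 0.00619). Cdhr3, a cadherin of ciliated cells, fell by 1.16 on the log2 scale, and the axonemal genes Rsph4a and Hydin fell by 1.21 and 1.06. Foxj1, the factor that switches on motile cilia, averaged 45.6 ± 8.34 TPM in knockout lungs and 68.5 ± 6.83 TPM in control lungs. It did not pass (adjusted p = 0.0805), with every knockout value under every control value. Krt15, a keratin of basal cells, was at 0, 0 and 0.246 TPM in knockout lungs and 1.70, 1.21 and 3.23 TPM in control lungs (log2 fold change -1.45 ± 0.26 (SE), adjusted p = 0.0187). It was 1 of 2 basal cell genes high enough to test. Summed TPM of the ciliated list was 1022, 1206 and 892 in knockout lungs and 1879.8, 1859 and 1863 in control lungs, without overlap (exact permutation test, two-sided, p = 0.1). Of the 10 airway genes named here that passed, 10, 7 and 9 still passed without knockout 1, 2 and 3, and 3, 8 and 5 without control 1, 2 and 3. Secretory cell genes that fell numbered 15, 12 and 19 without knockout 1, 2 and 3, and 7, 13 and 9 without control 1, 2 and 3. Ciliated cell genes that fell numbered 10, 4 and 17 without knockout 1, 2 and 3, and 0, 3 and 1 without control 1, 2 and 3.

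**Figure D3:**
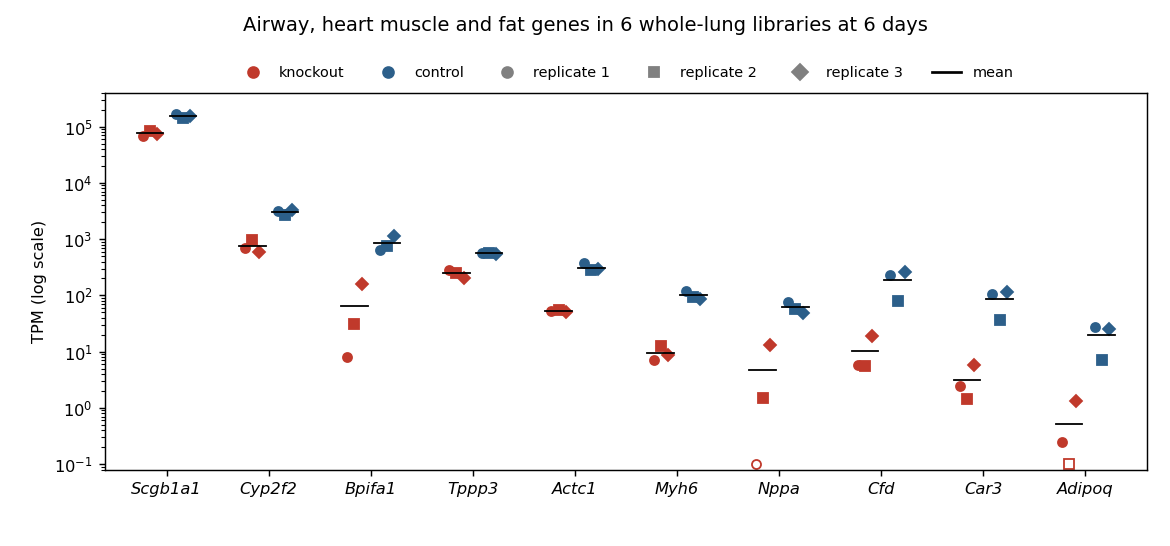
TPM on a log axis of 4 airway, 3 heart muscle and 3 fat genes in each of the 3 knockout (left, red) and 3 control (right, blue) whole lungs at 6 days; bars are means, marker shapes give the replicate number and open markers at the lower edge stand for values listed at 0. In each of the 10 genes the highest knockout value is below the lowest control value. Genes named as largest falls, Bpifa1 among them, were picked without overlap.

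Genes of heart muscle and of fat had the lowest medians of the 46 lists. Heart-type muscle sheathes the large pulmonary veins of mice, and fat lies around the airways and vessels at the lung root. Of 16 heart muscle genes 15 fell, with a median of -2.47, and of 11 fat cell genes 9 fell, with a median of -2.96. Actc1, cardiac actin, had 53.6, 54.5 and 51.3 TPM in knockout lungs and 372, 278 and 289 TPM in control lungs (log2 fold change -2.53 ± 0.15 (SE), adjusted p = 0.00177). Myh6, the atrial myosin heavy chain, had 6.98, 12.7 and 8.80 TPM in knockout lungs and 120.1, 93.2 and 87.9 TPM in control lungs (log2 fold change -3.30 ± 0.23 (SE), adjusted p = 0.00289). Nppa, the atrial natriuretic peptide, was listed at 0 in knockout 1 and had 1.49 and 12.9 TPM in knockout 2 and 3, against 77.5, 58.4 and 49.6 TPM in control lungs. The mitochondrial creatine kinase Ckmt2 (-2.75), the calcium store protein Casq2 (-2.46), myoglobin Mb (-3.62), the muscle creatine kinase Ckm (-3.35), the cytochrome oxidase subunit Cox8b (-3.19) and Colq (-3.12), the collagen tail of acetylcholinesterase, also fell, by the log2 fold changes given in parentheses. Mb, Ckm, Cox8b and Colq, which skeletal muscle makes as well, stand outside the list. Summed over the heart muscle list, TPM was 196, 360.3 and 379 in knockout lungs and 1966, 1356 and 1269.6 in control lungs (exact permutation test, two-sided, p = 0.1), with no overlap. Of the 9 heart and muscle genes named here that passed, 9, 8 and 9 still passed without knockout 1, 2 and 3, and 6, 8 and 7 without control 1, 2 and 3. Heart muscle genes of the list that fell numbered 15, 12 and 15 without knockout 1, 2 and 3, and 5, 12 and 9 without control 1, 2 and 3.

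Cfd, the fat-secreted complement factor D, had 5.90, 5.55 and 18.8 TPM in knockout lungs and 232, 80.7 and 256 TPM in control lungs (log2 fold change -4.14 ± 0.53 (SE), adjusted p = 0.00679). Car3, a carbonic anhydrase of fat and muscle, had 2.40, 1.43 and 5.71 TPM in knockout lungs and 105, 36.1 and 114 TPM in control lungs (log2 fold change -4.33 ± 0.50 (SE), adjusted p = 0.00518). Adipoq, the hormone adiponectin, had 0.252, 0 and 1.32 TPM in knockout lungs and 27.7, 7.12 and 25.2 TPM in control lungs (log2 fold change -3.68 ± 0.51 (SE), adjusted p = 0.00844). In all 3 the control lungs divided, with control 2 well below control 1 and 3 and still above every knockout lung. Plin1, the coat protein of fat droplets, had 0, 0.309 and 0.219 TPM in knockout lungs and 10.3, 4.92 and 10.4 TPM in control lungs (log2 fold change -2.96 ± 0.28 (SE), adjusted p = 0.00373). Retn (-3.72), Thrsp (-3.07) and Plin4 (-1.92), of fat hormone, lipogenesis and droplet coat, fell by these log2 changes. Summed TPM of the fat list was 89.3, 63.4 and 73.2 in knockout lungs and 533, 229 and 556 in control lungs (exact permutation test, two-sided, p = 0.1). Of the 7 fat genes named here that passed, 7, 7 and 7 still passed without knockout 1, 2 and 3, and 4, 7 and 6 without control 1, 2 and 3. Fat genes of the list that fell numbered 9, 8 and 9 without knockout 1, 2 and 3, and 5, 9 and 7 without control 1, 2 and 3. No source used here says how each lung was dissected, and the part of these tissues in the airway, stromal and endothelial results was not tested.

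**Figure D4:**
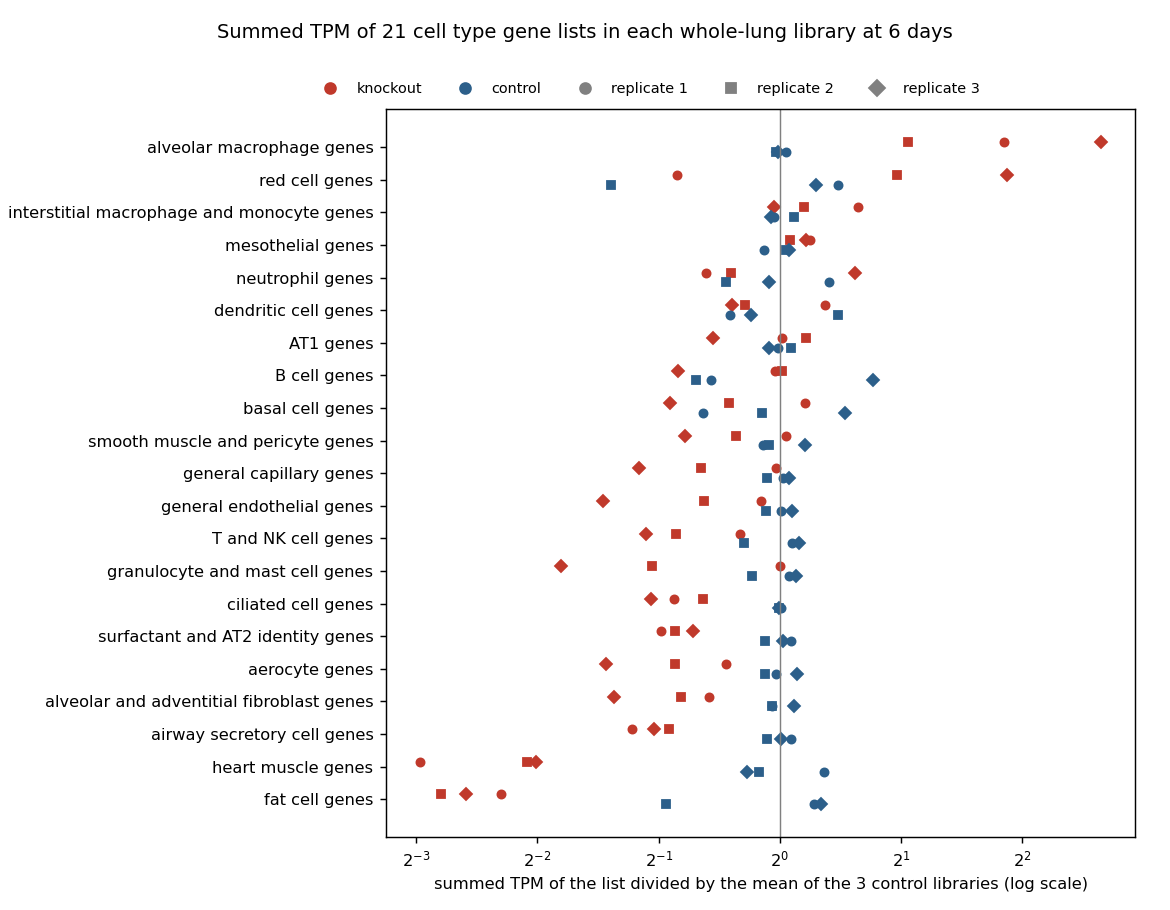
Summed TPM of each of 21 cell type gene lists in each whole lung at 6 days, divided by the mean of the 3 control lungs, on a log axis; knockout lungs (red) are drawn above control lungs (blue) in each row and marker shapes give the replicate number. Alveolar macrophage genes are at the top, with knockout sums of 5112 to 15397 TPM, and fat cell and heart muscle genes at the bottom; knockout 3 is the lowest library for the endothelial and fibroblast lists.

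Alveolar and adventitial fibroblasts hold the lung's scaffold and support AT2 cells. Some of their genes fell. Of 18 fibroblast genes 7 fell and none rose (median -0.88), and of 17 smooth muscle and pericyte genes 4 fell and none rose (median -0.67). Inmt, a methyltransferase abundant in alveolar fibroblasts, had 573, 546 and 499 TPM in knockout lungs and 1472, 1488 and 1742 TPM in control lungs (log2 fold change -1.54 ± 0.13 (SE), adjusted p = 0.00289). Ces1d, a carboxylesterase, averaged 320.2 ± 16.7 TPM in knockout lungs and 647 ± 48.0 TPM in control lungs (SD, n = 3 each). Scara5, a ferritin receptor of adventitial fibroblasts, averaged 1.98 ± 0.307 TPM in knockout lungs and 11.1 ± 3.25 TPM in control lungs. Pi16, a marker of adventitial fibroblasts, averaged 11.1 ± 2.16 TPM in knockout lungs and 35.8 ± 9.48 TPM in control lungs. Among contractile genes, Cnn1 (calponin) had 31.8, 21.2 and 28.4 TPM in knockout lungs and 69.1, 63.6 and 105 TPM in control lungs (log2 fold change -1.50 ± 0.23 (SE), adjusted p = 0.0124). Lgr6, Synpo2 and Actg2 fell, with log2 fold changes of -1.23, -1.38 and -0.68. Acta2, smooth muscle actin, averaged 230.2 ± 86.1 TPM in knockout lungs and 243 ± 32.0 TPM in control lungs. Its change of -0.14 did not pass, and turned to 0.02 under median-ratio scaling and to 0.12 without knockout 3. Of 11 genes of the mesothelium, the lung's outer lining, Msln rose and Gpm6a fell (-0.61). Msln, which encodes mesothelin, had 140.3, 164 and 178 TPM in knockout lungs and 63.3, 61.8 and 62.4 TPM in control lungs (log2 fold change 1.34 ± 0.14 (SE), adjusted p = 0.00445). Summed fibroblast TPM was 3352, 2856 and 1957 in knockout lungs and 4824, 4830.4 and 5463 in control lungs, with no overlap. Of the 10 stromal and mesothelial genes named here that passed, 9, 7 and 10 still passed without knockout 1, 2 and 3, and 4, 7 and 4 without control 1, 2 and 3. Fibroblast genes that fell numbered 13, 5 and 11 without knockout 1, 2 and 3, and 3, 5 and 3 without control 1, 2 and 3, with 11 under median-ratio scaling and 12 under quantile normalization. Smooth muscle and pericyte genes that fell numbered 7, 2 and 5 without knockout 1, 2 and 3, and 0, 2 and 0 without control 1, 2 and 3.

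Matrix genes changed in few cases. Of 35 collagen, elastic fibre and matricellular genes Lox rose and Lum fell, near the shares over all genes tested (3.16% and 3.79%). Lox, the enzyme that cross-links collagen and elastin, had 104, 85.3 and 62.0 TPM in knockout lungs and 26.6, 48.9 and 32.8 TPM in control lungs (log2 fold change 1.20 ± 0.26 (SE), adjusted p = 0.0343). Lum, the proteoglycan lumican, fell by 1.11 on the log2 scale. Eln, elastin, had 1086, 681 and 414 TPM in knockout lungs and 239, 386 and 258 TPM in control lungs and did not pass (adjusted p = 0.0677), although the genotypes were apart. Col1a1 had 492, 285 and 93.3 TPM in knockout lungs and 181, 199 and 195 TPM in control lungs, with knockout 3 below and knockout 1 above all controls (log2 fold change 0.30, which was -0.23 without knockout 1). Of 27 metalloproteinases and inhibitors 3 rose, the neutrophil collagenase Mmp8, the sheddase Adam8 (1.12) and the inhibitor Timp1. Mmp8 had 20.5, 18.8 and 23.1 TPM in knockout lungs and 5.84, 6.12 and 7.17 TPM in control lungs (log2 fold change 1.56 ± 0.17 (SE), adjusted p = 0.00462). Timp1 had 272, 202 and 209 TPM in knockout lungs and 22.5, 90.0 and 25.3 TPM in control lungs.

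Growth factor genes went both ways: of 26 growth factor ligands and feedback genes 7 fell and 3 rose. Igf1, which macrophages and fibroblasts secrete, rose, with 44.6, 29.6 and 35.3 TPM in knockout lungs and 7.66, 11.8 and 9.45 TPM in control lungs (log2 fold change 1.82 ± 0.22 (SE), adjusted p = 0.00595). The IGF-binding proteins Igfbp6 and Igfbp5 fell (-0.92 and -0.88 on the log2 scale), as did Fgf7, a fibroblast ligand for the epithelial receptor Fgfr2 (-1.26). Btc, Fgfr2, Etv5 and Igfbp3 were the others that fell. Of 34 genes of the TGF-beta, BMP and WNT pathways 2 rose and 1 fell, near the shares over all genes tested (3.16% and 3.79%). Among those that rose was the TGF-beta-induced Tgfbi (1.29). The gene that fell was the BMP target Id4 (-0.80), which did not pass with a pseudocount of 0.1 or with either other filter. Of the 11 matrix and growth factor genes that passed and are given here with values, 11, 4 and 11 still passed without knockout 1, 2 and 3, and 2, 8 and 2 without control 1, 2 and 3. Growth factor genes that fell numbered 9, 0 and 13 without knockout 1, 2 and 3, and 0, 2 and 0 without control 1, 2 and 3, with 12 under median-ratio scaling and 12 under quantile normalization. Matrix genes that rose numbered 1, 0 and 12 without knockout 1, 2 and 3, and 0, 1 and 0 without control 1, 2 and 3, with 6 under median-ratio scaling and 2 under quantile normalization.

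Few endothelial genes passed, though most were lower. None of 25 general endothelial genes passed with limma, 14 were lower at an unadjusted p under 0.05, and 22 had a negative change (median -0.82). Of all 14154 genes tested, 3563 had an unadjusted p under 0.05 in either direction and 5070 had a positive change. Kdr, the VEGF receptor, had 116, 82.2 and 34.2 TPM in knockout lungs and 171, 146 and 192 TPM in control lungs (adjusted p = 0.0884). Pecam1, the junction protein CD31, had 525, 421 and 186 TPM in knockout lungs and 543, 564 and 581 TPM in control lungs (adjusted p = 0.233). Knockout 3 was the lowest in both, and knockout 1 was the highest of the knockout lungs. Of 10 genes of aerocytes, the large gas-exchange capillary cells, 6 were lower at an unadjusted p under 0.05, and Cyp4b1, Fibin and Apln fell. Cyp4b1, a P450 that club cells also make, had 258, 216 and 125 TPM in knockout lungs and 601, 490.0 and 698 TPM in control lungs (log2 fold change -1.62 ± 0.27 (SE), adjusted p = 0.0141). Apln, the peptide apelin, averaged 17.5 ± 6.97 TPM in knockout lungs and 41.9 ± 6.88 TPM in control lungs (SD, n = 3 each). Fibin averaged 23.2 ± 11.05 TPM in knockout lungs and 57.5 ± 5.32 TPM in control lungs. Ednrb, an endothelin receptor, averaged 21.9 ± 11.4 TPM in knockout lungs and 56.1 ± 12.5 TPM in control lungs and did not pass (adjusted p = 0.0516). Of 9 general capillary genes none passed and 3 were lower at an unadjusted p under 0.05; Plvap averaged 264 ± 143 TPM in knockout lungs and 608 ± 104 TPM in control lungs. Summed TPM of general endothelial genes was 6835, 4944 and 2774 in knockout lungs and 7684, 7036 and 8155 in control lungs. For aerocyte genes it was 1197, 893 and 604 in knockout lungs and 1596, 1499 and 1798 in control lungs. Neither sum overlapped (exact permutation test, two-sided, p = 0.1 for each), while the sums of general capillary genes did. Of the 3 aerocyte genes named here that passed, 3, 1 and 3 still passed without knockout 1, 2 and 3, and 0, 1 and 0 without control 1, 2 and 3. General endothelial genes that fell numbered 13, 0 and 5 without knockout 1, 2 and 3, and 0, 0 and 0 without control 1, 2 and 3, with 4 under median-ratio scaling and 9 under quantile normalization. Aerocyte genes that fell numbered 6, 1 and 5 without knockout 1, 2 and 3, and 0, 1 and 0 without control 1, 2 and 3. General capillary genes that fell numbered 5, 0 and 1 without knockout 1, 2 and 3, and 0, 0 and 0 without control 1, 2 and 3.

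Few lymphocyte genes passed. Of 21 T and NK cell genes 2 fell, where 3.79% of all genes tested did. In this list 12 were lower at an unadjusted p under 0.05, where 3563 of all 14154 genes tested were lower or higher. None of the list had a positive change (median -0.70), where 5070 of all genes tested did. Its summed TPM was 344, 238 and 201 in knockout lungs and 462, 352 and 482 in control lungs, without overlap (exact permutation test, two-sided, p = 0.1). Nkg7, a granule protein of killer cells, had 26.9, 16.5 and 16.9 TPM in knockout lungs and 42.5, 34.1 and 40.3 TPM in control lungs (log2 fold change -0.95 ± 0.22 (SE), adjusted p = 0.0387). Gzma, granzyme A, averaged 40.1 ± 7.32 TPM in knockout lungs and 84.1 ± 23.1 TPM in control lungs (SD, n = 3 each). None of 11 B cell, 11 dendritic cell and 4 granulocyte and mast cell genes passed with limma. Of these, 1 B cell gene was higher, and 2 dendritic and 1 granulocyte or mast cell genes were lower, at an unadjusted p under 0.05. Of 11 neutrophil genes Mmp8 rose, while the abundant granule gene S100a9 had 236, 278 and 578 TPM in knockout lungs and 632, 313 and 439 TPM in control lungs. None of 11 MHC class II genes and 29 interferon-stimulated genes passed; at an unadjusted p under 0.05 none of the class II genes were higher or lower, and 2 interferon genes were higher and 3 lower.

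Of 38 chemokines and receptors 9 rose and none fell. Ccl6, a chemokine of macrophages, had 846, 551 and 1312 TPM in knockout lungs and 219, 247 and 154 TPM in control lungs (log2 fold change 2.06 ± 0.31 (SE), adjusted p = 0.011), and its receptor Ccr1 averaged 56.8 ± 23.2 TPM in knockout lungs and 14.5 ± 1.62 TPM in control lungs (SD, n = 3 each). The monocyte attractants Ccl7 and Ccl12 rose by 2.20 and 1.40 on the log2 scale. Of 27 interleukins and acute phase genes 7 rose. Lrg1, an acute phase glycoprotein, had 648, 616 and 584 TPM in knockout lungs and 170.2, 221 and 173 TPM in control lungs (log2 fold change 1.71 ± 0.14 (SE), adjusted p = 0.00289). Lcn2, the iron-scavenging lipocalin, averaged 1491 ± 148 TPM in knockout lungs and 405 ± 185 TPM in control lungs. Il33, the epithelial alarmin that starts type 2 responses, had 182, 246 and 316 TPM in knockout lungs and 107, 117 and 89.9 TPM in control lungs (log2 fold change 1.21 ± 0.21 (SE), adjusted p = 0.0171). Ptx3, a pentraxin, rose by 1.58. Of 25 complement genes 5 rose, among them the anaphylatoxin receptors C3ar1 (1.52) and C5ar1 (0.94) and the macrophage complement receptor Vsig4 (1.01). Of the 13 immune genes that passed and are given here with values, 13, 5 and 13 still passed without knockout 1, 2 and 3, and 1, 12 and 3 without control 1, 2 and 3. Chemokine and receptor genes that rose numbered 8, 2 and 9 without knockout 1, 2 and 3, and 0, 9 and 0 without control 1, 2 and 3. Interleukin and acute phase genes that rose numbered 7, 2 and 10 without knockout 1, 2 and 3, and 1, 7 and 2 without control 1, 2 and 3, with 11 under median-ratio scaling and 9 under quantile normalization. Complement genes that rose numbered 5, 1 and 12 without knockout 1, 2 and 3, and 0, 4 and 1 without control 1, 2 and 3, with 12 under median-ratio scaling and 10 under quantile normalization. T and NK cell genes that fell numbered 8, 0 and 5 without knockout 1, 2 and 3, and 0, 1 and 0 without control 1, 2 and 3.

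Over all 14154 genes tested 3.16% rose and 3.79% fell, with a median change of -0.14, and 3563 had an unadjusted p under 0.05 in either direction. Of 40 reported let-7 targets tested, 1 rose and none fell, and the median change was 0.01. Among the 40, 6 were higher and 4 lower at an unadjusted p under 0.05, near the share over all genes tested. The 1 that rose was Il6, an inflammatory cytokine that macrophages and stromal cells also make, with 3.75, 8.22 and 6.45 TPM in knockout lungs and 0.124, 2.45 and 0.155 TPM in control lungs (log2 fold change 2.06 ± 0.45 (SE), adjusted p = 0.0345). It did not pass without knockout 2, control 1 or control 3, with a pseudocount of 0.1 or with no filter on low values. Targets that rose numbered 2, 0 and 6 without knockout 1, 2 and 3, and 0, 3 and 0 without control 1, 2 and 3, with 6 under median-ratio scaling and 7 under quantile normalization. Cdc34, a ubiquitin-conjugating enzyme of the cell cycle, averaged 84.2 ± 2.23 TPM in knockout lungs and 55.0 ± 10.3 TPM in control lungs (SD, n = 3 each, adjusted p = 0.0591). The growth regulator Myc averaged 17.5 ± 1.39 TPM in knockout lungs and 10.6 ± 1.94 TPM in control lungs (adjusted p = 0.0667). Neither passed. Mycl, a relative of Myc, averaged 8.22 ± 2.63 TPM in knockout lungs and 14.6 ± 0.851 TPM in control lungs (adjusted p = 0.0751). Ccnd1, cyclin D1, and Ezh2, a histone methyltransferase, changed by -0.43 and 0.48 and did not pass (adjusted p = 0.225 and 0.214). The fetal targets were near 0. Hmga2 reached 0.142 TPM in knockout lungs and 0.108 TPM in control lungs, Igf2bp3 reached 0.322 TPM in knockout lungs and 0.188 TPM in control lungs, and Lin28b was listed at 0 in all 6 libraries.

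The seed pairs with the 8mer CTACCTCA in the longest 3′ untranslated region of 576 tested genes of the GENCODE M21 annotation. Of these, 3.30% rose and 3.30% fell, with a median change of -0.16, against 3.16% and 3.86% and a median of -0.14 over the 13504 tested genes with such a region. Among 2473 genes with either 7mer, CTACCTC or TACCTCA, both of which lie within the 8mer, 2.79% rose and 2.63% fell (median -0.18), and among 11031 genes with neither, 3.25% rose and 4.13% fell (median -0.13). The share that rose among genes with a site was near the background in whole lung. The letters were searched on the transcript strand only. A match to these letters is not evidence of a functional site, and no test was made.

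All 40 cell cycle genes tested had a positive change (median 0.83), and 3 rose, the replication factor Gins2 and the cyclins Ccne1 (1.05) and Ccnb1 (1.29). Gins2 had 19.9, 24.5 and 22.0 TPM in knockout lungs and 6.47, 12.3 and 4.85 TPM in control lungs (log2 fold change 1.47 ± 0.29 (SE), adjusted p = 0.0262). The cell cycle inhibitor Cdkn1a averaged 146 ± 27.9 TPM in knockout lungs and 115 ± 27.2 TPM in control lungs (SD, n = 3 each) and did not pass. Of 27 glycolysis and hypoxia genes 8 rose. Ankrd37, a hypoxia-induced gene, rose with 23.5, 31.0 and 29.6 TPM in knockout lungs and 5.05, 5.59 and 4.64 TPM in control lungs (log2 fold change 2.25 ± 0.18 (SE), adjusted p = 0.00289). The glycolytic enzymes Pgam1, Eno1 and Pkm rose by 0.90, 0.77 and 0.76 on the log2 scale. Of 30 sterol and fatty acid synthesis genes 5 rose, all of them in cholesterol synthesis, among them Mvd (1.04), Cyp51 (0.92) and Fdps (0.76). Dgat2, which makes triglyceride, fell, with 7.62, 7.44 and 5.92 TPM in knockout lungs and 21.9, 13.9 and 23.9 TPM in control lungs (log2 fold change -1.36 ± 0.23 (SE), adjusted p = 0.0154). Of 21 p53 targets 4 rose, among them the death effector Bax (0.80), Psrc1 (1.09) and the death receptor Tnfrsf10b (1.27). Of 18 clock genes the activators Arntl (-0.94) and Npas2 (-1.27) fell and Bhlhe41 rose. None of 24 unfolded protein response genes and 22 immediate early genes passed with limma; 2 and 3 were higher and 1 and 1 lower at an unadjusted p under 0.05. Of the 16 genes of these pathways that passed and are given here with values, 15, 1 and 16 still passed without knockout 1, 2 and 3, and 1, 11 and 1 without control 1, 2 and 3. Cell cycle genes that rose numbered 6, 0 and 5 without knockout 1, 2 and 3, and 0, 11 and 0 without control 1, 2 and 3, with 12 under median-ratio scaling and 12 under quantile normalization. Glycolysis and hypoxia genes that rose numbered 7, 1 and 13 without knockout 1, 2 and 3, and 1, 7 and 1 without control 1, 2 and 3. Sterol and fatty acid synthesis genes that rose numbered 4, 0 and 9 without knockout 1, 2 and 3, and 0, 2 and 0 without control 1, 2 and 3, with 8 under median-ratio scaling and 7 under quantile normalization. P53 targets that rose numbered 3, 1 and 8 without knockout 1, 2 and 3, and 1, 2 and 1 without control 1, 2 and 3, with 7 under median-ratio scaling and 7 under quantile normalization.

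The 6-day effect was then set against that in lungs at 6 months, from other mice. Of 13875 genes tested in both, the effect differed in 379 (2.73%), with 49 more positive at 6 days and 330 more negative. The libraries at 6 months held 22.5 to 67.0 TPM of Xist and 0 TPM of Ddx3y, the reverse of those at 6 days, so time since deletion, age and sex cannot be told apart in this difference. The fit at 6 months, with 4 lungs a genotype, called more of all genes: 2260 rose and 1966 fell of 14177 tested. At 6 days 447 rose and 536 fell of 14154, so counts called at the 2 times are not on one footing. Of the lipid-associated macrophage genes 17 rose at 6 days and 22 at 6 months. In 18 of 23 the effect differed, with medians of 1.10 at 6 days and 2.16 at 6 months. Gpnmb had a log2 fold change of 2.56 at 6 days and 6.61 at 6 months (difference -4.05, adjusted p = 0.000326), and Mmp12 had 1.83 and 6.89 (difference -5.06, adjusted p = 0.0019). Arg1 went the other way, with 4.73 at 6 days and 0.61 at 6 months (difference 4.12, adjusted p = 0.00196).

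Surfactant and AT2 genes differed in 10 of 28. At 6 days 1 rose and at 6 months, where more of all genes were called, 15 did. Sftpc had a change of -1.49 at 6 days against 0.18 at 6 months (adjusted p of the difference = 0.000223). Fat cell genes differed in 8 of 11, with medians of -2.96 at 6 days and -0.68 at 6 months, and heart muscle genes, of which 15 fell at each time, in 3 of 16. Airway secretory genes differed in 7 of 23, with Cyp2a5 at -2.91 at 6 days and 0.81 at 6 months. Msln had a change of 1.34 at 6 days against -0.41 at 6 months (adjusted p of the difference = 0.000156), and Eln 1.22 against -0.75 (adjusted p = 0.0156). With 1 lung library left out the number of genes that differed was 450, 142 and 889 without knockout 1, 2 and 3 and 107, 222 and 159 without control 1, 2 and 3.

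**Figure D5:**
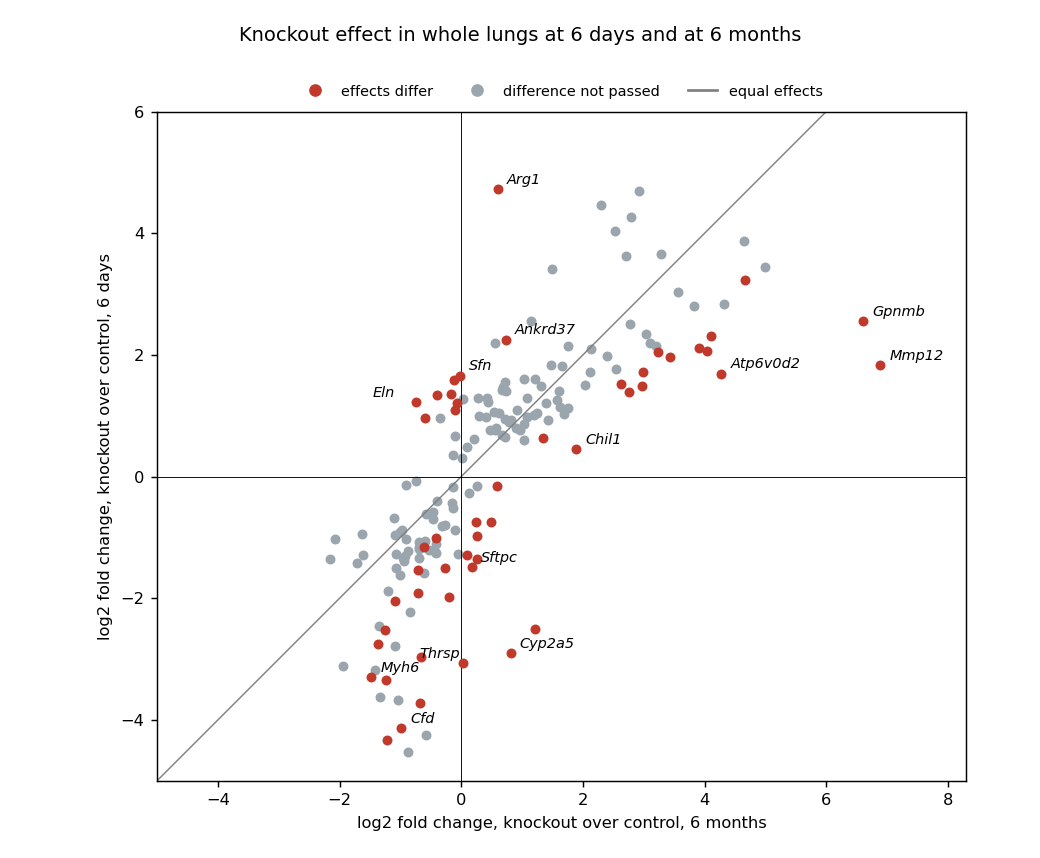
Log2 fold change of TPM + 1, knockout over control, in whole lungs at 6 days (vertical) against 6 months (horizontal) for the 173 genes of the text that were tested at both; red points are the 50 genes whose effects differed by the test of the difference and the line marks equal effects. Mmp12 and Gpnmb have the larger effect at 6 months and Arg1 at 6 days.

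Against sorted AT2 cells at 6 days, 11766 genes were tested in both and the effect differed in 125 (1.06%), with 42 more positive in whole lung and 83 more negative. Arg1 had a log2 fold change of 4.73 in lung and 0.36 in AT2 cells (adjusted p of the difference = 0.00396), Hmox1 4.46 and 0.94 (0.0341), and Ankrd37 2.25 and 0.00 (0.0018). Zfp169, beside the deleted cluster, had 0.79 in lung and 2.75 in AT2 cells (0.0165). Of 12109 genes tested in the sorted AT2 cells 802 rose and 148 fell. Macrophage genes also rose in these cells. Of 14 alveolar macrophage genes tested there 6 rose, and none of the 14 differed from lung. Of 22 lipid-associated macrophage genes 8 rose there, and 5 differed from lung. Marco had 4.69 in lung and 2.96 in AT2 cells, and this difference did not pass (0.254). Of the surfactant and AT2 genes none of 28 differed, with Sftpc at -1.49 in lung and -0.46 in AT2 cells (difference -1.03 ± 0.73 SE). Of 40 cell cycle genes 3 rose in lung and 37 in AT2 cells, and none differed, with medians of 0.83 in lung and 0.81 in AT2 cells. The count of genes that differed was 213, 15 and 321 without knockout lung 1, 2 and 3 and 6, 80 and 7 without control lung 1, 2 and 3.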

How the data were processed

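Poly(A)-selected, not strand-specific libraries of whole mouse lung were read on GRCm38, per the submitters' processing notes; aligner and quantifier: not given in the sources used here. The authors deposited TPM values for 24972 rows in 1 table per kind of sample; 2 rows that shared a symbol were dropped, and 24 symbols that had become dates were kept as listed. No columns lacked a sample. TPM keeps no read numbers, so depth is unknown and no interval from counts was possible; precision rests on 3 lungs a genotype.

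Genes at 1 TPM or more in at least 3 of the 6 libraries were tested by genotype on log2(TPM + 1) in R 4.3.3 (limma 3.58.1), with a trended variance, two-sided, and Benjamini-Hochberg adjusted p-values over all genes tested. Each table was fitted alone. Differences between the effects in 2 tables combined both standard errors, with Welch-Satterthwaite degrees of freedom, and were adjusted likewise. Summed TPM of 21 cell type lists was compared by an exact permutation test, and 25 process lists were counted. The code was tested on simulated data. Mature let-7 sequences and gene positions are from RefSeq (GRCm38.p6); 3′ untranslated regions are from GENCODE M21, whose names matched 24464 symbols, and 24407 matched RefSeq.

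The members and lists were chosen with earlier results of these data known. Named genes were the 12 largest rises and 12 largest falls past the test whose higher genotype averaged 5 TPM or more, without overlap, up to 4 genes of smallest adjusted p per list, and a standing list; predicted genes and receptor segments were passed over, and some genes the rule names are not reported here. Sftpd, Etv5, Areg, Hbegf, Lyve1, Tfrc, Zfp169, Ptpdc1, genes listed without values and the genes of the closing observations were chosen after their values were seen. Alternatives were another pseudocount (0.1), other filters (none, 5 TPM), median-ratio and quantile scaling, haemoglobin genes left out (4 as planned, and all of them, added after seeing the data), no variance trend, library weights, replicate number as a block, and each library left out. Replicate numbers are shared by the genotypes, and nothing in the labels says that they pair mice. Deviations of same-numbered lungs correlated at -0.15, 0.01 and -0.14, which with so few lungs cannot decide whether they were paired. Organoid libraries were not analysed here.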

Additional observations from a re-analysis of the deposited data

Results flagged for a closer look

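A difference between the knockout effect at 6 days and that at 6 months, both log2 fold changes of TPM + 1, passed its own test (adjusted p under 0.05, over 13875 genes) for 50 of the 173 genes of the text tested at both times. Values are the 6-day effect minus the 6-month effect. Of macrophage and lysosomal genes, it was -1.24 for Siglecf, -1.44 for Trem2, -4.05 for Gpnmb, -5.06 for Mmp12 and -1.48 for Ms4a7, with -1.19 for Ctsd, -1.36 for Ctss, -2.59 for Atp6v0d2, -0.71 for Atp6v1b2 and -1.80 for Wfdc17. Activation and lectin genes differed by 4.12 for Arg1, -1.43 for Chil1 and -1.80 for Clec4d. Alveolar epithelial genes differed by -1.67 for Sftpc, -1.24 for Acoxl, -1.38 for Lgi3, -0.74 for Sftpa1, -0.99 for Abca3 and -1.25 for Etv5, and genes of AT1 cells or the intermediate state by 1.53 for Krt7, -1.27 for Lgals3, 1.67 for Sfn and 1.20 for Hbegf. In airway secretory genes the difference was -0.96 for Cyp2f2, -0.54 for Aldh1a1 and -3.72 for Cyp2a5. Heart and muscle genes differed by -1.28 for Actc1, -1.82 for Myh6, -1.39 for Ckmt2 and -2.12 for Ckm, and fat genes by -3.12 for Car3, -3.15 for Cfd, -3.03 for Retn, -3.10 for Thrsp, -2.30 for Plin1 and -1.20 for Plin4. For stromal, mesothelial and matrix genes it was -0.82 for Inmt, -0.60 for Ces1d, -1.78 for Scara5, 1.75 for Msln, 1.27 for Lox and 1.97 for Eln. Immune genes differed by -1.98 for Ccl6, -1.47 for Lcn2, 1.70 for Ptx3 and -1.11 for C3ar1. The remaining differences were 1.51 for Ankrd37, -1.62 for Dgat2, 1.57 for Wfdc3 and -3.73 for Zfp967. The lungs at 6 months came from other mice with the female pattern of Xist and Y-linked genes, so time, age and sex cannot be told apart.

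Between whole lung and sorted AT2 cells at 6 days the effect differed (adjusted p under 0.05, over 11766 genes) for 19 of the 117 genes of the text tested in both. Values are the lung effect minus the AT2 effect. Macrophage and lysosomal genes differed by 1.84 for Trem2, 3.13 for Spp1, 1.53 for Ctsd and 1.07 for Lgmn. Iron, activation and stress genes differed by 3.53 for Hmox1, 4.37 for Arg1, 2.63 for Gdf15 and 1.54 for Sfn. Airway, fat, stromal and mesothelial genes differed by -2.67 for Cyp2a5, -2.42 for Thrsp, -1.89 for Scara5 and 1.01 for Msln. Sterol, triglyceride and hypoxia genes differed by 1.15 for Mvd, 1.02 for Fdps, -2.003 for Dgat2 and 2.25 for Ankrd37. The last were -1.96 for Zfp169, -2.49 for Zfp967 and 1.70 for Wfdc12. Over all genes, 213, 15 and 321 differed without knockout lung 1, 2 and 3, and 6, 80 and 7 without control lung 1, 2 and 3; which of the named genes still differed was not examined.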

How the results depend on the processing

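Of the 447 genes that rose and 536 that fell, 892 were also called under median-ratio scaling (946 and 852 called), 899 under quantile normalization (913 and 973) and 971 with all haemoglobin genes left out (697 and 668). A filter of 5 TPM called 338 and 323, fewer genes being tested. Library weights, which ran from 0.0752 for knockout 3 to 34.7 for knockout 2 and so leaned on 1 lung, called 3858 and 4537. With 1 library left out, 41 to 1032 genes rose and 51 to 1017 fell, both counts lowest without control 1 and the count of rises highest without knockout 3; genes shared with the full set ranged from 91 to 963. Effects that differed from 6 months numbered 379, against 610 with a shared spread and 107 to 889 with 1 lung library left out. Effects that differed from AT2 cells numbered 125, against 79 with a shared spread, 79 with a pseudocount of 0.1 and 6 to 321 with 1 lung library left out. The cause of these shifts was not tested. The median change of genes with a let-7 site was -0.16 for the 8mer and -0.18 for either 7mer.

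With the replicate number as a block, which the labels do not give as a pairing, 355 genes rose and 344 fell. Of the genes that rose or fell with the block, 628 were also called in the unblocked fit. The blocked effect differed from 6 months in 281 genes and from AT2 cells in 91. Cell cycle genes that rose numbered 15 with the block.

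Directions turned as follows. Under median-ratio scaling the summed TPM difference, knockout minus control, became 373 for AT1, 184 for neutrophil and 10.02 for dendritic cell genes, and the log2 change became 0.0094 for Sftpa1, 0.077 for Hopx and 0.022 for Acta2. Library weights gave 0.20 for Ager and 0.14 for Hopx. With 1 library left out the change ran from -0.37 to 0.077 for Ager, from -0.17 to 0.029 for Hopx, from -0.41 to 0.12 for Acta2 and from -0.23 to 0.97 for Col1a1. Col1a1 passed with limma when 1 library was left out (lowest adjusted p = 0.027). None of the other values given here passed. No other gene of the text turned. Without control 1, 102 genes of the text that had passed no longer did, against 89 without control 3, 59 without knockout 2, 23 without control 2 and at most 19 under any alternative that kept all libraries.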

Other observations

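The genes given here lie outside the lists and were picked with their values known. Ch25h, which makes the oxysterol 25-hydroxycholesterol, had 63.9, 66.2 and 87.2 TPM in knockout lungs and 11.4, 28.2 and 11.2 TPM in control lungs (log2 fold change 2.15 ± 0.34 (SE), adjusted p = 0.0124). Cyp7b1, which breaks oxysterols down, had 23.8, 14.0 and 10.4 TPM in knockout lungs and 3.10, 7.06 and 3.66 TPM in control lungs (log2 fold change 1.60 ± 0.35 (SE), adjusted p = 0.0339). Both rose, with control 2 the highest control. Msr1, a macrophage scavenger receptor for modified lipoprotein, averaged 51.4 ± 10.5 TPM in knockout lungs and 9.51 ± 3.58 TPM in control lungs (SD, n = 3 each, log2 fold change 2.35), and Prg4, the lubricating proteoglycan of joints and serous surfaces, averaged 12.3 ± 4.87 TPM in knockout lungs and 1.11 ± 0.433 TPM in control lungs (2.61). Hamp, the hormone hepcidin, which in liver and heart lowers iron export through ferroportin, fell, with 1.87, 4.09 and 6.06 TPM in knockout lungs and 30.0, 12.5 and 24.0 TPM in control lungs (log2 fold change -2.22 ± 0.40 (SE), adjusted p = 0.0182). It moved beside the heart muscle genes, of which 15 of 16 fell, and their part in it was not tested.

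Slc26a4, the anion exchanger pendrin that airway cells raise under type 2 cytokines, had 37.6, 21.5 and 38.9 TPM in knockout lungs and 5.91, 15.1 and 6.79 TPM in control lungs (log2 fold change 1.77 ± 0.36 (SE), adjusted p = 0.0266). Retnlb, a resistin-like protein of mucosal epithelium, had 3.60, 1.07 and 9.02 TPM in knockout lungs and 0, 0.150 and 0 TPM in control lungs. Of 10 tested genes with the symbol Wfdc, a family of small secreted proteins with a protease inhibitor fold, 4 rose and none fell. Wfdc17 rose by 2.31, Wfdc21 by 2.20, Wfdc12 by 2.16 and Wfdc3 by 0.97 on the log2 scale, and the 6 that did not pass lay between -0.77 and 0.11. Of the 12 genes of these observations named here that passed, 11, 9 and 12 still passed without knockout 1, 2 and 3, and 4, 10 and 4 without control 1, 2 and 3, among them Zfp967.

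Zfp967, a zinc finger gene, was listed at 0 in all 3 knockout lungs and had 5.80, 4.51 and 3.92 TPM in control lungs (adjusted p = 0.00289). Its log2 fold change was -2.51 at 6 days and 1.22 in lungs at 6 months. Zfp genes of this family share sequence, and reads of close copies may have been split.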
